A study of Mus musculus with 20 samples.

Results

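The members described here are array probes that read long intergenic noncoding RNA (lincRNA) regions of the mouse genome. They are the probes whose name in the scanner files is a stretch of chromosome with a strand, forward (F) or reverse (R), in place of a gene. Of 16181 such probes on the array, 82 at the proximal end of chromosome 10 were left out by rule, and 16099 probes in 4587 region strands remained. A probe was kept if in any group 4 or 5 of its 5 arrays had it well above background by the scanner software's own flag, leaving 6379 probes (39.6%) in 3027 region strands, out of 30960 kept probes of all kinds. Among all other probes the kept share was 62.1%. The 672 probes kept at exactly 4 arrays had a median level of -4.27, and the 776 that missed the rule at 3 arrays had a median of -4.67. A level is a log2 intensity minus the array's 75th percentile, so 0 is that percentile. It ranks arrays at 1 probe and does not rank probes by abundance.

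All 20 mice had their ovaries removed at 4 weeks and received 1 oral gavage at 9 weeks. Livers were taken 4 hours later under anaesthesia (xylazine at 10 mg/kg with ketamine at 100 mg/kg). The 4 groups of 5 were wild type with placebo (ERa_WT_PLB), wild type with estradiol (ERa_WT_E2), null with placebo (ERa_KOHmz_PLB) and null with estradiol (ERa_KOHmz_E2). Nulls lack estrogen receptor alpha, placebo was castor oil with 5% ethanol, and estradiol (E2, the main circulating estrogen) was given at 1 mg/kg. Wild types and nulls came from the same parents, and neither the strain nor the deleted part of the receptor gene is given in the sources used here. Total RNA of 1 liver went on 1 array, so fewer cells of a type and less RNA per cell cannot be told apart.

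Long noncoding RNAs are transcribed and usually spliced like messenger RNAs but carry no long open reading frame. Some act in the nucleus by bringing chromatin or splicing factors to a locus and some act in the cytoplasm, while most have no known function. In liver, estrogen receptor alpha is a ligand-activated transcription factor that binds mostly at enhancers far from promoters, and noncoding transcription often starts at such sites and near regulated genes.

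The sequences below are the 60-base probes that carry the main results, 5′ to 3′ as the scanner files list them, with positions on mouse build mm9. The 5 probes of chr1:182180931-182186106 (mm9, reverse strand) are shown because every one of them rose with E2 in wild types.
A_30_P01028031: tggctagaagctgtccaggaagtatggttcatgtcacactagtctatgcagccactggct
A_30_P01031215: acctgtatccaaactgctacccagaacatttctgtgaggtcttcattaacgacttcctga
A_30_P01021778: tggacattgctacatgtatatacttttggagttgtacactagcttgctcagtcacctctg
A_30_P01028284: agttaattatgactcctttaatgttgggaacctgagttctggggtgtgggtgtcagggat
A_30_P01027583: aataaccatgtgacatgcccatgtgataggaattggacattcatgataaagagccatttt

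The next 3 probes, of chr1:107866276-107887102 (reverse strand), are shown because 2 of them, A_30_P01026342 and A_30_P01024439, fell with E2 in wild types. Capitals mark the 39 bases that the first pair shares, so these are overlapping readings of 1 stretch.
A_30_P01025660: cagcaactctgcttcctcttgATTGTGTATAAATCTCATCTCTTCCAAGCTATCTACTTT
A_30_P01026342: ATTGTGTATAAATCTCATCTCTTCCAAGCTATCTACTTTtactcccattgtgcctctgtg
A_30_P01024439: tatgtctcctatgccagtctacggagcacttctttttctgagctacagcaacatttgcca

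On chromosome 7 the probe A_30_P01017548 of chr7:144563845-144603732 (reverse strand) is identical in all 60 bases to a probe that the array lists for the gene 9430038I01Rik. The first 30 of the 57 bases that these 2 probes share with A_30_P01028944, of the overlapping region chr7:144567251-144602440, are given here to show the overlap.
A_30_P01017548: tccagctgaagttatcagggacagaacccc

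Detection of the region probes varied between animals more than between groups. On single arrays 32.7% to 46.5% of the 16099 probes were well above background, with the exception of wild-type E2 animal 1 at 61.3%. That array also had the highest median member level, -2.15, against -2.78 to -2.43 on the other 19 arrays, so results that rest on it are given with and without it. Kept members lay low on the array: the median level was -2.64, and 85.0% lay below 0. The median SD between animals of a group was 0.49 for the 2667 members below a level of -3, 0.29 for the 2225 between -3 and -1, and 0.19 for the 1487 at -1 or more. A difference at a dim member was therefore measured with a larger error than one at a bright member. Esr1, the receptor's gene, was 4.00-fold lower in nulls under placebo (SE 0.23 on the log2 scale; adjusted p = 0.000341, limma) and 4.70-fold lower under E2, and its probe was still well above background on all 10 null arrays. All 10 hepatocyte markers looked for were kept, and none of the 10 passed for E2 in either genotype.

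**Figure D1:**
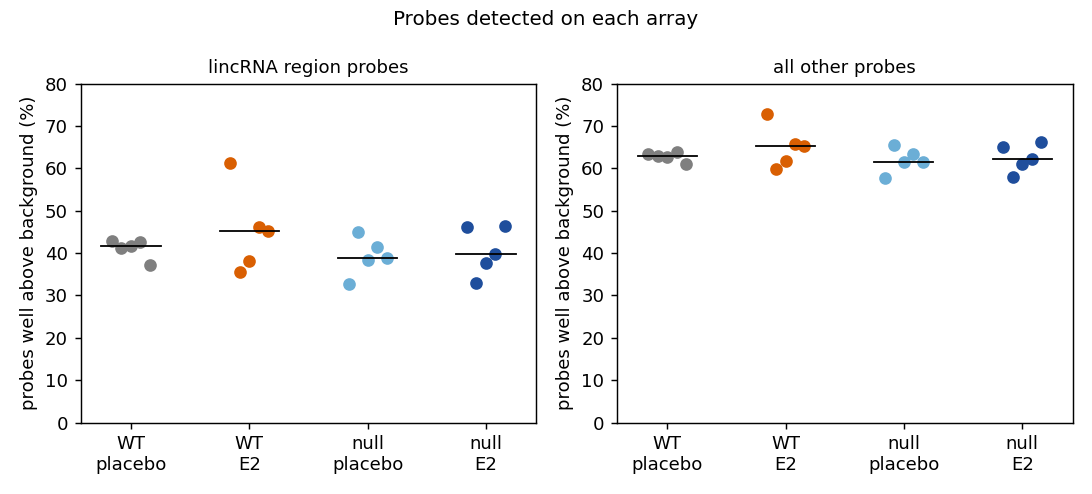
Share of probes well above background on each array (y axis, percent) for the lincRNA region probes (left) and all other probes (right); points are the 5 animals of each group and bars are group medians. On 19 arrays 32.7% to 46.5% of the region probes were well above background, and on wild-type E2 animal 1 it was 61.3%.

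The label of these regions as intergenic was checked against the gene probes of the array, named through RefSeq. In 2646 of the 3027 kept region strands (87.4%) no named gene probe lay inside on the same strand. In 166 (5.48%) a same-strand probe of a protein-coding gene lay inside, and in 215 one of another gene. Those 166 go against the label, and they include both chromosome 7 regions and a chromosome 9 region described further on. A gene probe on the opposite strand lay inside 268 region strands. Only positions of named gene probes were used, so a region within a gene can pass unseen. The 87.4% is therefore not a share shown to be intergenic. Of the kept member probes 116 (1.82%) shared 20 or more bases with a gene probe. Of 1060 spans tiled on both strands, 621 had kept probes on both strands, 164 on the forward strand alone and 168 on the reverse strand alone. A probe's place in its region also counted: of 4 equal segments of a region, the one at the 5′ end had 43.4% of its probes kept and the one at the 3′ end 37.9%.

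The first comparison asked which lincRNA regions respond to E2 in wild-type livers. E2 raised 11 member probes and lowered 2, in 5 region strands at 4 loci. A locus on chromosome 1 near Psen2, a gene of the gamma-secretase complex, rose about 2-fold at all 5 of its probes, and 2 overlapping regions on chromosome 7 rose at 5 of 7 probes. Another chromosome 1 locus, over the lncRNA gene Gm7160, fell at 2 of 6 probes, and a chromosome 8 locus rose at its single kept probe. The 13 called members were 0.204% of the members, beside 0.304% called among all 30960 probes (limma, Benjamini-Hochberg adjusted p under 0.05). Among all probes 0.284% were called higher and 0.0194% lower. An unadjusted p under 0.05 was reached by 595 members (9.33%), against 8.31% of all probes, and the median member difference was 0.02 against 0.00 over all probes. Scaling on the array median, under which the median of all probes was -0.22, left 3 calls, all higher, and quantile scaling left 9, all higher. Without the animals whose number in the labels is below 750 (0 wild-type placebo, 2 wild-type E2, 3 null placebo and 2 null E2 animals), 7 were called. The limit of 750 is arbitrary, and it leaves unequal groups. The erythroid markers, whose part in these results was not tested, moved with this comparison: the summed level of the 3 kept ones of 5 listed ran from 6.73 to 7.23 with placebo and from 7.28 to 7.91 with E2, without overlap, with a median difference of 0.49 and 0 of 3 called.

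The locus near Psen2 gave the most uniform response. Probe A_30_P01021778 (chr1:182183924-182183983) was at -2.25, -2.02, -2.09, -2.26 and -2.10 in the wild-type placebo livers and at -0.80, -1.03, -1.05, -1.09 and -1.29 in the wild-type E2 livers. In nulls it was at -2.46, -2.40, -2.04, -2.49 and -2.28 with placebo and at -2.37, -2.39, -2.19, -2.73 and -2.48 with E2. Every wild-type E2 liver lay above every other liver of the study, and the other 3 groups overlapped. The rise in wild types was 2.13-fold (log2 1.09 ± 0.11, SE; n = 5 per group; adjusted p = 1.61e-05, limma), and in nulls the log2 difference was -0.10 ± 0.11 (adjusted p = 0.948).

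The other 4 probes of that region rose by 1.03 to 1.07 on the log2 scale. They span 3.17 kb and differ in brightness, but the spacing is uneven. A_30_P01031215, A_30_P01021778 and A_30_P01028284 lie side by side between 182183864 and 182184094. A_30_P01031215 rose by 1.07 ± 0.12 (adjusted p = 2.89e-05), A_30_P01028031 by 1.07 ± 0.12 (adjusted p = 4.85e-05) and A_30_P01028284 by 1.03 ± 0.18 (adjusted p = 0.00677). A_30_P01027583 was the dimmest, at -3.71, -4.00, -3.92, -4.39 and -3.97 with placebo and -2.31, -3.08, -2.93, -3.36 and -3.11 with E2 in wild types, and in nulls it was well above background on 2 and 1 of 5 arrays. It rose by 1.04 ± 0.20 (adjusted p = 0.0271). Across the 20 arrays the 5 probes correlated with each other at 0.79 to 0.98 over 10 pairs (median 0.90). The calls of the other 4 held without any single array (adjusted p at most 0.0307), while that of A_30_P01027583 ended without any of animals 1, 2 and 3 given E2 or animals 2, 3, 4 and 5 given placebo, all wild type. Over the 20 arrays left out in turn its difference ran from 0.88 to 1.14, with 0.88 and an adjusted p of 0.0764 without wild-type E2 1, and normexp background correction took it to 0.41. Under median scaling the calls of A_30_P01028284 (0.81) and A_30_P01027583 (0.81) ended, and both ended too without the animals below 750.

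Psen2 itself was measured by a probe 23.3 kb from the region, on the same strand, at chr1:182157610-182157669. Its level was 5.52 ± 0.18 with placebo and 6.53 ± 0.09 with E2 in wild types (SD, n = 5 each), and 5.88 ± 0.10 and 5.87 ± 0.12 in nulls. Psen2 rose 2.02-fold with E2 in wild types (log2 1.02 ± 0.09, adjusted p = 3.41e-06), a difference of the same size as at the region. In the genotype comparison under placebo Psen2 differed by 0.36 (adjusted p = 0.19) and the 5 region probes by -0.26 to -0.08, none past the threshold, and the difference between gene and region was not tested. Between A_30_P01021778 and the Psen2 probe the correlation over 20 arrays was 0.75. Whether the region lies inside the Psen2 transcription unit cannot be read from the probe positions. On the opposite strand, both kept probes of the region had differences of 0.26 and 0.72 with E2 in wild types, and neither passed.

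**Figure D2:**
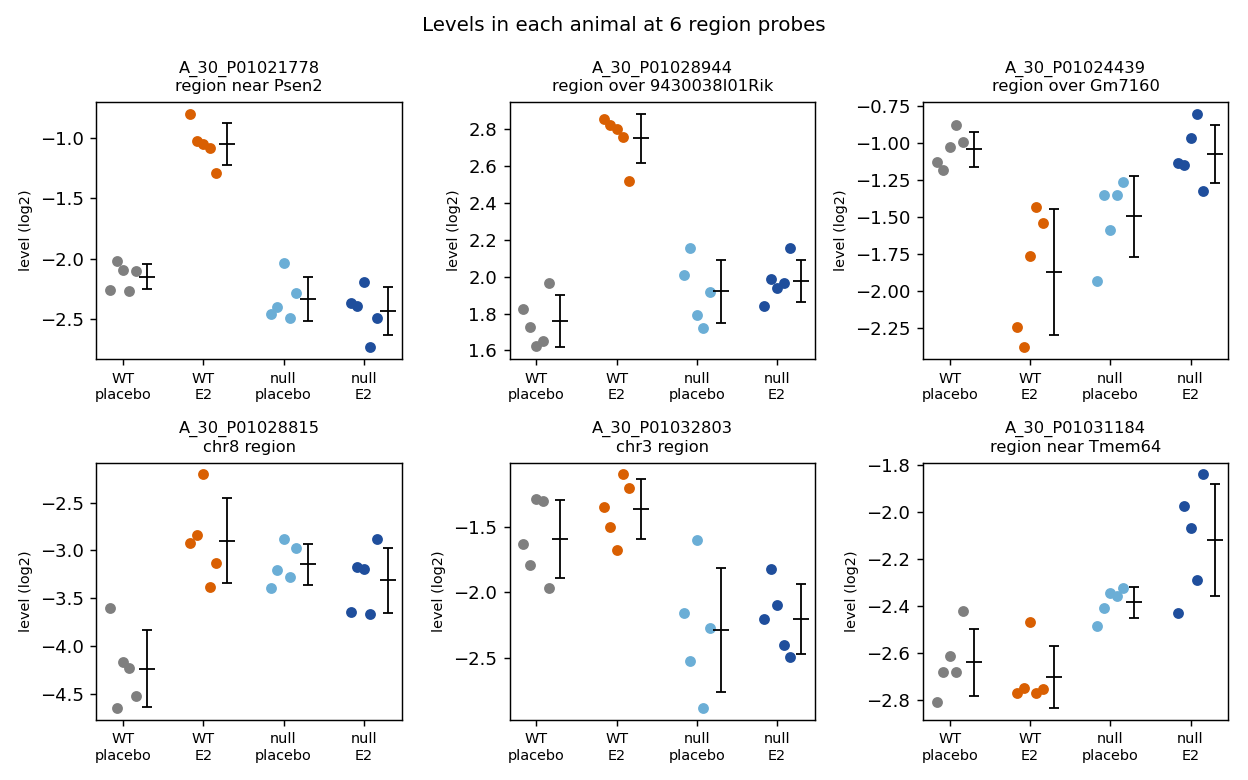
Level at 6 region probes (y axis, log2 intensity relative to the array's 75th percentile) in each of the 5 animals of the 4 groups, with group mean and SD beside the points. At A_30_P01021778 and A_30_P01028944 every wild-type E2 animal lies above every other animal, and at A_30_P01024439 the wild-type E2 animals lie below all wild-type placebo animals.

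On chromosome 7 the 2 overlapping reverse-strand regions held 7 kept probes, in 2 stretches that behaved differently. The 5 probes between 144567252 and 144568674 rose by 0.75 to 0.99 with E2 in wild types, and the pair between 144564507 and 144564678 differed by 0.08 and 0.13 (adjusted p at least 0.833). That pair was also dimmer, at mean levels of -3.32 and -2.84 against -0.91 to 2.45 for the 5. A_30_P01028944 (chr7:144567252-144567311) was at 1.82, 1.73, 1.62, 1.65 and 1.97 with placebo and 2.85, 2.82, 2.80, 2.75 and 2.52 with E2 in wild types. In nulls it was at 2.01, 2.15, 1.79, 1.72 and 1.92 with placebo and 1.84, 1.99, 1.94, 1.97 and 2.16 with E2. All wild-type E2 livers were above all other livers, and the rise in wild types was 1.99-fold (log2 0.99 ± 0.10; adjusted p = 1.27e-05).

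The other probes of the stretch that rose gave log2 differences of 0.96 ± 0.10 at A_30_P01017548, 0.96 ± 0.10 at A_30_P01018449, 0.88 ± 0.10 at A_30_P01023191 and 0.75 ± 0.14 at A_30_P01017972. Their adjusted p-values were 2.66e-05, 2.89e-05, 5.82e-05 and 0.0125, and all 5 calls held without any single array. All 5 ended under median scaling, with differences from 0.53 to 0.77 and adjusted p-values from 0.100 to 0.40, and that of A_30_P01017972 also ended without the animals below 750. Without wild-type E2 1 the difference at A_30_P01017972 was 0.67 (adjusted p = 0.0498). The identity printed above places this stretch within a protein-coding gene of RefSeq, 9430038I01Rik, and not in intergenic sequence. The gene probe with the same 60 bases rose by 0.94 ± 0.10 (adjusted p = 2.66e-05), and over 20 arrays it correlated with A_30_P01017548 at 0.99, which shows how closely 2 spots of 1 sequence follow each other here. A second gene probe, sharing 36 bases with A_30_P01017972, rose by 0.88 ± 0.15 (adjusted p = 0.00651). The last, at chr7:144574756-144574815, differed by 0.38 ± 0.24 (adjusted p = 0.686). On the opposite strand 5 kept probes ran from -0.50 to 1.21, and none passed.

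The region over Gm7160 was the one locus that fell. A_30_P01024439 (chr1:107870253-107870312) was at -1.13, -1.19, -1.03, -0.88 and -0.999 with placebo and at -2.25, -2.38, -1.77, -1.43 and -1.54 with E2 in wild types. In nulls the order was turned, with -1.93, -1.35, -1.59, -1.35 and -1.26 under placebo and -1.14, -1.15, -0.97, -0.80 and -1.32 under E2. The fall in wild types was 1.78-fold (log2 -0.83 ± 0.17; adjusted p = 0.0404) with no overlap between the groups, and nulls differed by 0.42 ± 0.17 (adjusted p = 0.813), with overlap. A_30_P01026342 fell by 0.65 on the log2 scale (SE 0.13, adjusted p = 0.0327), and A_30_P01025660, which shares 39 of its bases, differed by -0.65 ± 0.15 without passing (adjusted p = 0.109).

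The Gm7160 probe in that region differed by -0.47 ± 0.13 (adjusted p = 0.323), and the pair of region probes between 107873802 and 107873921 by -0.22 and -0.13. That pair was dimmer, at mean levels of -3.97 and -3.58 against -2.04 to -1.23 in the stretch with the called probes. Both calls in the region were close to the threshold. That of A_30_P01024439 ended without 14 of the 20 arrays taken 1 at a time (differences from -0.94 to -0.70), and that of A_30_P01026342 without 8, namely animals 1, 2, 3 and 4 of the wild types given placebo, animals 1, 2 and 3 of those given E2, and animal 3 of the nulls given E2 (from -0.72 to -0.56). Without wild-type E2 1 the differences were -0.73 and -0.56. Both calls also ended under median and quantile scaling, with region means and with the slide as a block. They ended too with no filter on dim probes, with only the groups compared and without the animals below 750. That of A_30_P01024439 ended with the deposited table as well.

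**Figure D3:**
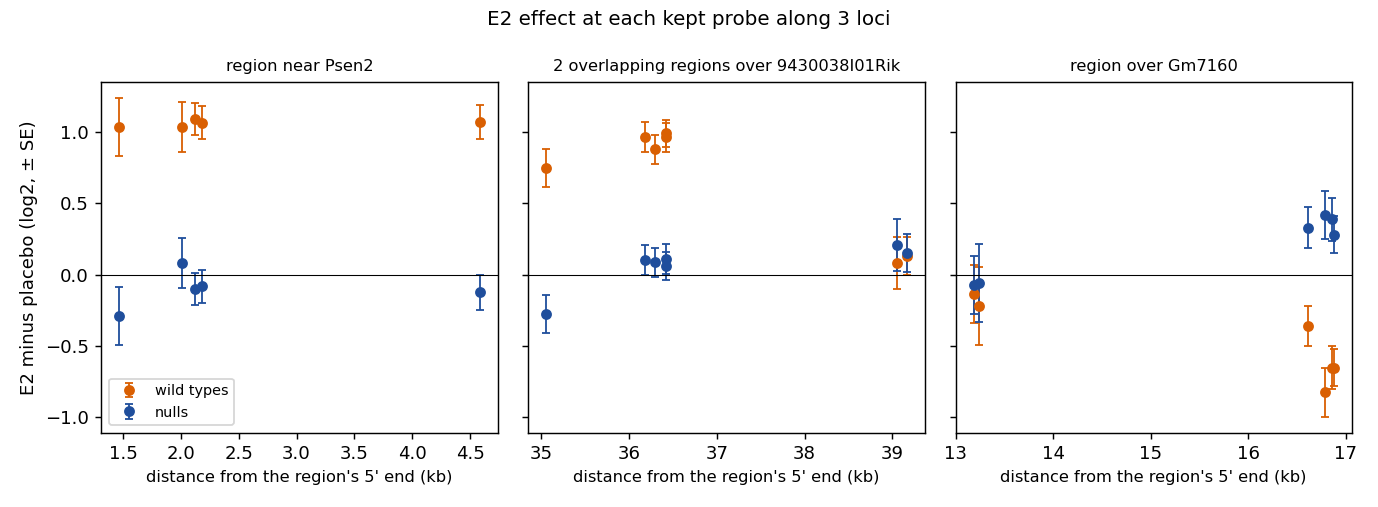
Difference between E2 and placebo (y axis, log2 with SE) at each kept probe against its distance from the region's 5′ end (x axis, kb), for wild types and nulls, at 3 loci. In wild types all 5 probes of the region near Psen2 lie between 1.03 and 1.09. Within each of the other loci neighbouring probes move together. Probes some kilobases away lie closer to 0 but are also dimmer, so distance and brightness cannot be told apart.

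On chromosome 8 a single probe of chr8:105742425-105852975 (forward strand) was kept of 5, and no kept gene probe lay within 100 kb. A_30_P01028815 was at -3.60, -4.64, -4.16, -4.23 and -4.52 with placebo, where 3 of 5 arrays were well above background, and at -2.92, -2.84, -2.21, -3.39 and -3.13 with E2 in wild types. The rise was 1.33 ± 0.22 on the log2 scale (adjusted p = 0.00425). In nulls it was at -3.39, -3.20, -2.88, -3.28 and -2.98 with placebo and -3.64, -3.17, -3.20, -3.66 and -2.88 with E2, so the null placebo livers all lay above the wild-type placebo livers (1.09 ± 0.22, adjusted p = 0.101) and the null E2 livers overlapped them. The call held without any single array and ended under both other scalings, the deposited table, normexp background correction, a fit of only the groups compared and without the animals below 750, with a rise of 0.46 at the lowest (normexp).
The probe reads: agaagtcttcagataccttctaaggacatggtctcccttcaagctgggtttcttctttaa

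In nulls, E2 changed 0 members by limma, beside 0.00323% of all probes (1 probe), and 360 members (5.64%) reached an unadjusted p under 0.05, against 6.03% of all probes. The member with the smallest p was A_30_P01032711 of chr18:57104718-57105355 (forward strand), which differed by 1.97 ± 0.35 in nulls (adjusted p = 0.189). With placebo it was at -4.70, -4.37, -5.60, -4.50 and -4.26, and with E2 at -2.08, -2.23, -3.52, -2.36 and -3.39, with no overlap. Most null placebo arrays had it at background, and the probe was kept through groups where it was high. The size of this difference is therefore not well measured. The next 3 by p were A_30_P01030543 of chr9:67414463-67483185 (1.03 ± 0.21), A_30_P01017823 of chr10:81816994-81863610 (1.16 ± 0.25) and A_30_P01030090 of chr2:153163620-153170845 (1.21 ± 0.27), with adjusted p-values of 0.441 to 0.452. Without null placebo 3, 2 other members passed.

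The difference between the E2 effects of both genotypes was tested directly. It passed at 11 members (0.172%, against 0.184% of all probes), 8 with the higher effect in wild types (0.171% of all probes) and 3 with the lower (0.0129%). On chromosome 7 all 5 probes of the stretch that rose differed between genotypes by 0.79 to 1.03, with adjusted p-values of 0.00251 to 0.0254. All 5 calls ended under median scaling and without the animals below 750. With the slide as a block, and with no filter on dim probes, all but that of A_30_P01028944 ended. At the locus near Psen2 the difference was 1.15, 1.20 and 1.19 at A_30_P01031215, A_30_P01028031 and A_30_P01021778 (adjusted p = 0.00223, 0.00223 and 0.0013). At A_30_P01028284 and A_30_P01027583 it was 0.96 and 1.33 without passing (adjusted p = 0.292 and 0.0858), and Psen2 differed by 1.03 ± 0.13 (adjusted p = 0.000613).

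At the 2 called probes over Gm7160 the genotypes' effects differed by -1.25 ± 0.24 and -0.93 ± 0.18 (adjusted p = 0.0334 and 0.0428). At A_30_P01032711 on chromosome 18, 5 wild-type arrays were well above background with placebo and 1 with E2, against 1 and 5 in nulls. The fitted difference of -2.46 ± 0.49 (adjusted p = 0.0428) is therefore taken largely against values at background, and its size is not well measured: with normexp it was -0.69 (adjusted p = 0.35). Those 3 calls ended without 14, 15 and 15 of the 20 arrays taken 1 at a time, and that of A_30_P01017972 without 8. The 11 calls became 7 without wild-type E2 1, wild-type E2 2, wild-type placebo 3 or null E2 1, all 7 of them among the 11. Under median scaling 1 call was left, on the lower side, and quantile scaling gave 8, all higher.

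Null against wild type was compared under each treatment and averaged over both. The question is whether the loss of the receptor sets region levels without E2 too. Under placebo 0 members passed by limma, beside 0.0614% of all probes (0.0226% higher and 0.0388% lower), with 534 members (8.37%) at an unadjusted p under 0.05 against 9.71% of all probes. The members with the smallest p were A_30_P01028815 on chromosome 8 (above), A_30_P01018482 of chr12:5303823-5379098 (1.38 ± 0.28, adjusted p = 0.101) and 2 probes of chr10:94848446-94874121. That last region lies 0.945 kb from a probe of Socs2, a feedback inhibitor of growth hormone signalling, on the opposite strand. Its probe A_30_P01021366 was well above background on 5 wild-type and 0 null placebo arrays, but on 3 arrays of either genotype under E2. It lay close to background, was kept through the group where it was high, and was not called (lowest adjusted p over the comparisons 0.0749, limma). A_30_P01025452 of the same region differed by -2.34 ± 0.52 (adjusted p = 0.124). Without null placebo animal 3, 7 members passed under placebo. Leaving out animal 1 or 5 of that group, animal 1 or 2 of the wild types given placebo or animal 3 of those given E2 gave 1.

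Under E2, 17 members differed between genotypes (0.266%, against 0.443% of all probes), 5 higher and 12 lower in nulls, in 8 region strands. Among all probes 0.084% were higher and 0.359% lower. This comparison uses the same wild-type E2 livers as the E2 comparison. All 5 probes near Psen2 were lower in nulls, by 1.03 to 1.59 on the log2 scale, and so were the 5 rising probes on chromosome 7, by at least 0.68. Near Psen2 the dim A_30_P01027583 was at background on most null arrays, so its difference is taken largely against background. Over the alternatives the differences near Psen2 ran from -1.69 to -0.47. Over Gm7160, 3 probes were higher, by 0.64 to 0.80, and none of these 3 calls held without each single array (0.55 to 0.91; 0.55 to 0.70 without wild-type E2 1).

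Single probes of 4 further regions made up the rest under E2. A_30_P01031184 of chr4:15230638-15231187, near a Tmem64 probe, was at -2.77, -2.75, -2.47, -2.77 and -2.76 in wild types and at -2.43, -1.97, -2.07, -2.29 and -1.84 in nulls, without overlap (0.58 ± 0.10, adjusted p = 0.00945). A_30_P01028985 of chr8:90000619-90061169 was at -2.15, -2.63, -2.20, -2.86 and -2.49 in wild types and -3.14, -3.34, -3.35, -3.15 and -3.10 in nulls (-0.75 ± 0.12, adjusted p = 0.00298). Both calls ended under median scaling, normexp, a fit of only the groups compared and without the animals below 750, and that of A_30_P01031184 also under quantile scaling. With normexp the differences were 0.32 and -0.31. A_30_P01020666 of chr4:94121118-94148348 differed by -0.88 ± 0.17 (adjusted p = 0.018), a call that ended without animal 5 of the wild types or animal 2 or 3 of the nulls (differences from -0.99 to -0.74) and with normexp (-0.24). A_30_P01032711, at background on 4 of 5 wild-type arrays, was 1.64 ± 0.35 higher in nulls (adjusted p = 0.0398), which was 0.53 with normexp (adjusted p = 0.103), and lost its call without 12 of the 20 arrays. Quantile scaling gave 15 calls under E2, 1 higher and 14 lower, and median scaling 7, 1 higher and 6 lower. A fit of only the groups compared gave 9, all lower, and leaving out the animals below 750 gave 6.

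Averaged over both treatments, 20 members in 14 region strands differed between genotypes (0.314%, against 0.63% of all probes), 5 higher and 15 lower in nulls. Among all probes 0.368% were higher and 0.262% lower. Of the 20, 7 belong to the loci near Psen2 and on chromosome 7, where the difference lay mostly under E2. The other 13 had the same sign under both treatments, as did 6 of those 7. All 20 were picked on the average of both treatments, which favours a shared sign, so this is no separate sign of a difference under placebo. Under placebo alone 0 members passed. At A_30_P01020666 too the difference lay mostly under E2 (-0.88, against -0.21 under placebo).

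The largest of these by region was the locus of Dleu2, a lncRNA gene that hosts microRNAs. In 3 overlapping or neighbouring regions on chromosome 14, 4 of 9 kept probes were lower in nulls. A_30_P01019014 of chr14:62280837-62283960 was at 0.68, 0.66, 0.88, 0.83 and 1.11 in wild types and 0.63, 0.48, 0.83, 0.24 and 0.39 in nulls under placebo. Under E2 it was at 0.86, 0.70, 0.92, 1.18 and 1.09 in wild types and 0.64, 0.42, 0.37, 0.32 and 0.51 in nulls. The groups overlapped under placebo and not under E2, and the averaged difference was -0.41 ± 0.08 (adjusted p = 0.033).

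A_30_P01018358 of the same region fell by 0.48 on the log2 scale (adjusted p = 0.0344), A_30_P01030216 of chr14:62294849-62301165 by 0.38 (adjusted p = 0.042) and A_30_P01025617 of chr14:62263564-62307496 by 0.96 (adjusted p = 0.0334). A_30_P01025617 was well above background on 10 wild-type and 2 null arrays, so its difference is taken largely against background, and with normexp it was -0.17 (adjusted p = 0.4). The locus was not uniform. A_30_P01019549 has the same 60 bases as a Dleu2 gene probe and differed by 0.15 ± 0.11, as the gene probe did at 0.14 ± 0.11, neither of them called, while the other Dleu2 gene probe differed by -0.35 ± 0.12 (adjusted p = 0.183). Each of these 4 calls ended without 8 to 15 of the 20 arrays, and all 4 ended with the replicate number or no filter on dim probes.

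Outside that locus, A_30_P01032803 of chr3:131128972-131163308 was at -1.63, -1.79, -1.29, -1.30 and -1.97 in wild types and -2.16, -2.53, -1.60, -2.88 and -2.27 in nulls under placebo. Under E2 it was at -1.35, -1.51, -1.68, -1.10 and -1.21 in wild types and -2.21, -1.82, -2.10, -2.41 and -2.49 in nulls. It was 1.70-fold lower in nulls (log2 -0.76 ± 0.14, adjusted p = 0.0158), a call that held without any single array. The other 3 kept probes of the region differed by -0.71 to -0.61 without passing. A_30_P01020518 of chr9:78104935-78116974, which holds a probe of the protein-coding gene Gm3776 on the same strand, was higher in nulls by 0.48 ± 0.09 (adjusted p = 0.0194). The Gm3776 probe differed by 0.90 ± 0.27 (adjusted p = 0.13).

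A_30_P01031184 on chromosome 4 was higher by 0.42 ± 0.07 (adjusted p = 0.0105), and 2 of 5 probes of chr9:14460976-14488051, over the lncRNA gene Gm7607, were higher by 0.31 and 0.30 (adjusted p = 0.0493 and 0.0414). The remaining 3 of that region lay between 0.25 and 0.29. A further 3 were A_30_P01018482 on chromosome 12 (0.89 ± 0.20, and 0.36 with normexp), A_30_P01025878 of chr4:131734714-131741964 (-0.40 ± 0.09) and A_30_P01020666 (-0.55 ± 0.12, and -0.12 with normexp), with adjusted p-values of 0.0414 to 0.0493. The last, A_30_P01020836 of chr15:102926581-102932542, was well above background on 5 wild-type placebo, 2 wild-type E2, 2 null placebo and 0 null E2 arrays. It was kept through the group where it was high, so no size is given for its lower level in nulls (adjusted p = 0.0439, and 0.364 with normexp). Calls near the threshold were easily lost here: 8 of the 20 held without every single array, and the count was 8 to 13 without any of animals 2, 4 and 5 of either null group, animals 4 and 5 of the wild types given E2 and animals 2, 3 and 4 of those given placebo. Quantile scaling gave 14, 1 higher and 13 lower, and median scaling 5, all lower.

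**Figure D4:**
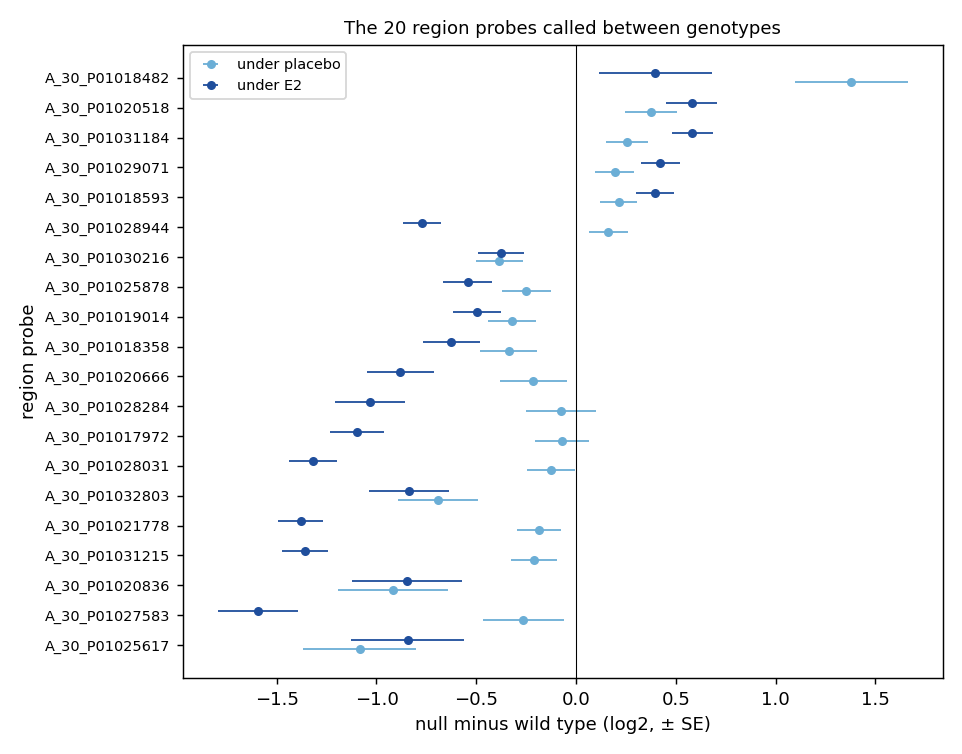
Difference between nulls and wild types (x axis, log2 with SE) under placebo and under E2 for the 20 region probes (y axis) called when both treatments are averaged. The probes near Psen2 and on chromosome 7 lie near 0 under placebo and below 0 under E2. The remaining probes lie on 1 side of 0 under both, which the choice of probes by their average favours.

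Regions were then set beside the nearest kept gene probe within 100 kb, which was found for 2523 region strands (1224 genes). Over these regions the E2 difference in wild types of the region mean and of the gene correlated at 0.07, a description in which regions share genes and arrays. For the 267 regions with a same-strand gene probe inside it was 0.34, for the 1119 with a same-strand gene outside 0.10, and for the 954 with an opposite-strand gene outside -0.03. Averaged null against wild type gave 0.12 over all, 0.21 over the 1542 regions within 20 kb and 0.43 with the gene inside. Of the 3 regions whose nearest gene probe, as taken here, was called for E2 in wild types, 1 was called, the one near Psen2. The others were its opposite-strand region, with a mean of 0.49, and a region on chromosome 10, with a mean of 0.07 beside a rise of 1.01 at Traf3ip2, an adaptor of interleukin-17 signalling. For both called chromosome 7 regions the probe taken was the uncalled 9430038I01Rik probe at chr7:144574756-144574815 (0.38). The other 9430038I01Rik probes inside these regions, at 0.94 and 0.88, were called, so these regions too hold a gene that responded. Regions beside Foxq1, a forkhead transcription factor gene that was 1.66 lower in nulls under placebo, and Slc2a1, a glucose transporter gene that was 0.72 higher, held no called probe.

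**Figure D5:**
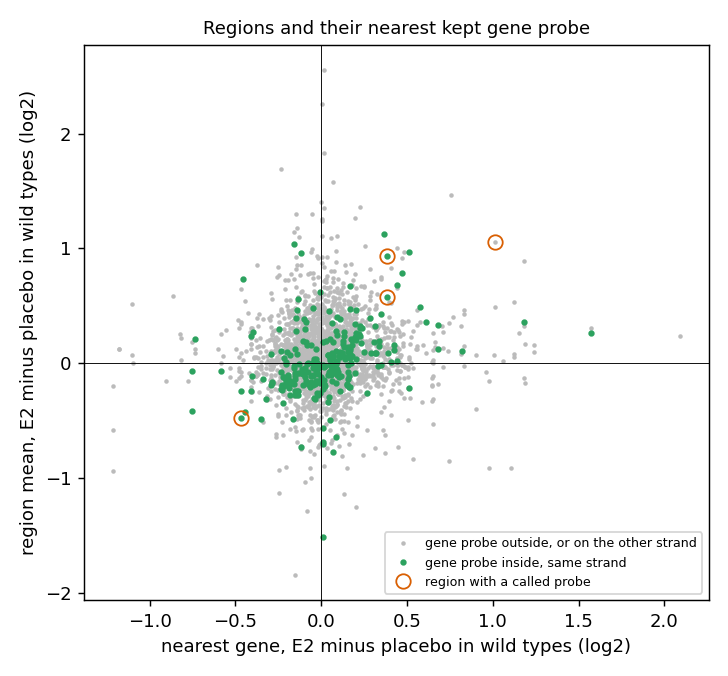
Difference between E2 and placebo in wild types (log2) of the mean of a region's kept probes (y axis) against that of its nearest kept gene probe within 100 kb (x axis) for 2523 region strands. The region near Psen2 lies at 1.06 against 1.02 for the gene, and over all regions the correlation is 0.07.

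The gene probes whose levels over 20 arrays were most like those of the called members were listed as a description. Beside the 5 probes near Psen2 these were genes that rose with E2 in wild types: Slc34a2, a phosphate transporter (0.94 with A_30_P01021778), Flrt1, a cell adhesion protein (0.94 with the same probe), Baiap2l1, an actin-binding adaptor (0.94 with A_30_P01028031), and 2610318M16Rik (0.95 with A_30_P01028031). For A_30_P01028944 on chromosome 7 they were 9430038I01Rik (0.995), Mad2l1, a spindle checkpoint gene (0.95), and Creb3l4, a membrane-bound transcription factor (0.94). For A_30_P01024439 they were Cldn1 and Cldn3, tight junction genes (0.90 and 0.88), which differed by -0.50 and -0.52 with E2 in wild types without passing. For the Dleu2-locus probes A_30_P01019014 and A_30_P01018358, Esr1 was among the 3 most alike gene probes (0.77 and 0.74). Both probes were picked for a lower level in nulls, where Esr1 is lower too. The levels hold the group differences, so this likeness, like those above, follows in part from the choice of members.

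Named lncRNA genes measured by gene probes gave the background of the class. Of 73 listed, 56 were on the array and 39 were kept, and with E2 0 of 39 were called in either genotype (median difference 0.00 in wild types and 0.02 in nulls). Between genotypes, Snhg11, a host gene of small nucleolar RNAs, was higher in nulls under placebo, at -1.59 ± 0.51 against -3.04 ± 0.46 in wild types (SD, n = 5 each; 1.45 ± 0.26, adjusted p = 0.0489), and averaged (1.16 ± 0.19, adjusted p = 0.00457). Mir17hg, host of the miR-17 to miR-92a cluster, was lower in nulls under E2 (-0.48 ± 0.10, adjusted p = 0.0284), and the 4 regions nearest to it had means of -0.35 to -0.05 with 0 called probes. H19, an imprinted lncRNA, was at -1.89 with placebo and -2.89 with E2 in wild types without passing (adjusted p = 0.616), and Neat1, the scaffold of nuclear paraspeckles, differed by -0.19 ± 0.19 (adjusted p = 0.827). Among markers of other cell types the erythroid gene Alas2 was higher in nulls (0.90 ± 0.12 under placebo, adjusted p = 0.00276). The summed erythroid level ran from 7.09 to 7.65 in null placebo livers, overlapping the wild-type placebo range, and its part in the genotype results was not tested.

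Probes of 1 region strand did not always read the same thing. Here each level was taken minus its group mean, so group differences do not enter, unlike in the correlations of levels given above. Pairs of overlapping probes were left out. Over 6509 pairs of kept probes of the same region strand the median correlation of these deviations across 20 arrays was 0.37. It was 0.82 for the 1086 pairs in which both probes had a level of -1 or more. For 4199 pairs on opposite strands of a span it was 0.14, and 0.30 for the 387 bright pairs. These values share arrays and array-wide differences, and without wild-type E2 1 they were 0.35, 0.83, 0.11 and 0.31.

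Members detected in 1 group and not in another were counted as a description. The same count was not made for all probes, so it says nothing particular about lincRNA regions. Each such probe was kept through the group where it was high. At 69 probes in 66 region strands, 4 or 5 arrays of 1 group were well above background against 0 of another, at mean levels from -5.30 to -4.02, close to background. The pattern most often seen was wild-type E2 against wild-type placebo (18 probes), and at 17 of those 18 wild-type E2 animal 1, the array with the widest detection, was one of the arrays above background. Of the 69, 1 was called in any comparison, A_30_P01020836. At 7 probes the gap was 5 arrays against 0, among them A_30_P01029074 of chr3:58118325-58136550, with 0 wild-type placebo and 5 wild-type E2 arrays (lowest adjusted p over the comparisons 0.408).

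The brightest members were steady across all groups. A_30_P01031448 of chr14:78924115-78938125 had a mean level of 9.04, with 8.80 as its lowest and 9.26 as its highest value over 20 livers, and an SD within groups of 0.12. The next 5 had means of 8.57 to 8.11, and their differences with E2 in wild types ran from -0.04 to 0.10, with adjusted p-values of 0.858 to 0.984. One of them, A_30_P01031754 of chr19:5801802-5802597, lies 6.03 kb from a probe of Malat1, an abundant nuclear lncRNA, on the same strand, and A_30_P01020306 of chr14:22267795-22319045 lies 0.101 kb from a probe of Adk, the adenosine kinase gene.

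At the other end, 4 members spread widely within groups. A_30_P01018533 of chr5:15146475-15170100 and A_30_P01019442 of chr5:14943275-14944205 lie 224 kb apart near Speer genes, a multicopy family. The 32 bases in capitals are their longest exact shared run. The lower-case bases differ only at the first and the last of them, so the probes are nearly the same sequence.
A_30_P01018533: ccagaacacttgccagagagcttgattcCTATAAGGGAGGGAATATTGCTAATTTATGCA
A_30_P01019442: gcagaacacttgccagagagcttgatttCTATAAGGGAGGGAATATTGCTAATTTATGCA
A_30_P01018533 was at 3.04, 2.51, -5.36, -3.92 and -7.34 in the null E2 livers, and A_30_P01019442 at 3.33, 2.82, -5.41, -3.82 and -6.47 in the same animals. Both probes read high in the same livers, with a correlation of 0.96 over 20 arrays, and a second probe of the first region, A_30_P01031842, followed at 0.98. Given their shared bases, near-identical copies cannot be told apart here. A_30_P01018572 of chr17:32213027-32228368, over the pseudogene Pdxk-ps, lay between -1.55 and -1.13 in 19 livers and at 9.14 in null placebo animal 4.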

How the data were processed

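Per the file headers, arrays were 1-colour and the deposited spot intensity values, background-subtracted and detrended, came from the scanner software Agilent Feature Extraction (10.10.1.1). Positions are on mm9. A log2 table of 32526 probes was deposited beside them, and limma is named in the submitters' processing notes. Each column followed the log2 mean signal of its array (correlation 0.9986 to 0.9999) with a median of 7.85. Per the labels, RNA had an integrity number above 9. The 20 arrays lay on 4 slides, and the groups were spread unevenly over them. No wild-type E2 array lay on slide 3 and no null placebo array on slide 4. The main fit had no term for the slide.

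Levels are log2 of the processed intensity minus the array's 75th percentile. Kept probes (30960 of 55681) were tested 1 by 1 with limma 3.58.1 in R 4.3.3 in 1 fit of 4 group means (16 residual and 2.47 prior degrees of freedom), with 6 contrasts, 2-sided, Benjamini-Hochberg adjustment over all kept probes and a threshold of 0.05. Probes of a region share their source and are not replicates. Results and plots were made with Python 3.11.15, pandas 2.3.3, numpy 2.4.6 and matplotlib 3.10.9. On simulated data with 4 sets of 50 changed probes for E2 in wild types, log2 changes of 0.5, 1, 2 and 3 were recovered at 14, 30, 47 and 50 probes, with 4 false calls among 30924.

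Other probes were named through a RefSeq table (GRCm38.p6) by accession (27235), symbol (3581) or synonym (569), and 8115 kept their file name. No coordinate was taken from it. Members, lists and tests were chosen with earlier results of these data known. Named members were all those called, or the 4 smallest p where none was; the 6 brightest; the 4 of largest spread; those detected in 1 group and not in another; other kept probes of their regions; the 3 gene probes most alike to each called member; and kept lncRNA genes of a list. Animals were separate, so p-values measure the spread between animals.
Alternatives were other scalings, background correction, the deposited table, filters, region means, slide and replicate blocks, fewer animals or groups, moderation settings and each array left out.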

Additional observations from a re-analysis of the deposited data

Results flagged for a closer look

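Single animals stood apart from the other 4 of their group in 9 of 164 groups of values examined, and chance gives about 1 in 20. Wild-type placebo animal 5 was highest at A_30_P01017548 (2.15), A_30_P01030216 (0.84) and A_30_P01029071 (0.95), and it had the lowest share of region probes well above background in its group, 37.3%. Wild-type E2 animal 3 was highest at A_30_P01031184 (-2.47), wild-type E2 animal 4 at A_30_P01030216 (0.65), and wild-type placebo animal 2 was lowest at A_30_P01020666 (-4.45). Null placebo animal 4 was far above the rest at A_30_P01018572 (9.14). The median member level of wild-type E2 animal 1 was the highest of its group (-2.15).

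The E2 effect differed between genotypes, by a test of the difference itself, at 11 members. Wild types minus nulls gave 1.15, 1.20 and 1.19 at A_30_P01031215, A_30_P01028031 and A_30_P01021778 near Psen2. On chromosome 7 it gave 0.86 at A_30_P01017548, 0.86 at A_30_P01018449, 0.79 at A_30_P01023191, 0.93 at A_30_P01028944 and 1.03 at A_30_P01017972. It gave -1.25 at A_30_P01024439, -0.93 at A_30_P01026342 and -2.46 at A_30_P01032711.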

How the results depend on the processing

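No called value changed its direction under any alternative run. With each array left out in turn, the members called ran from 10 to 19 for E2 in wild types (13), 0 to 2 for E2 in nulls (0), 7 to 14 for the difference between the E2 effects (11), 0 to 7 for genotype under placebo (0), 13 to 21 under E2 (17) and 8 to 28 averaged (20). Median scaling gave 3 for E2 in wild types, 1 for the difference, 7 for genotype under E2 and 5 averaged. Under it the median of all probes was -0.22 for E2 in wild types, -0.12 for E2 in nulls and 0.11 for genotype under E2, against 0.00, -0.01 and -0.01 with the 75th percentile. Without the animals below 750, so with fewer samples, the counts were 7, 2, 6 and 10 in that order. No filter on dim probes (more probes tested) gave 4 for the difference and 7 for genotype averaged, and region means (fewer values tested) gave 3 and 9, and 1 under placebo. The slide as a block gave 1 for E2 in nulls, 7 for the difference (5 of them among the 11), 2 for genotype under placebo and 8 averaged. Normexp gave 13 averaged, and only the groups compared gave 9 for genotype under E2; the cause was not tested. Between regions and neighbour genes within 20 kb the correlation was 0.099 for E2 in wild types and 0.21 for genotype averaged, against 0.07 and 0.12 within 100 kb.

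Animal numbers 1 to 5 did not pair the animals: same-numbered animals' deviations correlated at -0.15 to 0.24, and 5 arrays were closest to one of their own number. The replicate block gave 19, 0, 9, 0, 19 and 13 members called in the order of the first sentence on counts.

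Dim members were the least well measured, since the spread between animals was widest below a level of -3. Of the kept members 65.7% were well above background on all 20 arrays. In level, 85.0% lay below the array's 75th percentile, below which 75% of the non-control spots lie by definition.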
